A study of Homo sapiens with 12 samples.

Results

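A set of 10 mitotic genes was followed through a GOLM1 knockdown: AURKA, AURKB, TPX2, PLK1, BUB1, BUB1B, TTK, CDK1, NEK2 and MAD2L1. They are 10 of the 17532 genes with enough counts to be tested, and all 10 passed the filter on low counts. The set was selected on measured values of these same libraries, the fold changes per siRNA, because AURKA and MAD2L1 had fallen far more with one siRNA than with the other. The values of these genes in the 3 comparisons are therefore given as a description, with no p-value. The calls of the fit over all genes are counted for them beside the share of all genes called, and are no test of this set.

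The cells were A549, an established human lung adenocarcinoma line, which carried no engineered allele in any group. Small interfering RNAs against GOLM1, which encodes a Golgi membrane glycoprotein, were introduced with a lipid reagent while the cells were being plated. A first group received siGOLM1-1, another received siGOLM1-2, and the control group received a non-targeting siRNA. Each siRNA was used at 50 nM, RNA was collected 72 h later, and each group had 4 libraries that the labels call biological replicates. Whether those came from separate passages or days was not stated, and the siRNA sequences are not analysed here. Transcripts were counted as reads per gene, and levels are given as CPM, a count scaled to the size of its library, with TMM factors.

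Mitosis is driven by a small set of kinases. CDK1 with cyclin B starts it, AURKA with its activator TPX2 and PLK1 build the spindle, and AURKB corrects faulty attachments of chromosomes to the spindle. The spindle checkpoint (TTK, BUB1, BUB1B and MAD2L1) holds the anaphase-promoting complex inactive until every chromosome is attached. Transcripts of these genes normally accumulate in late S, G2 and M phase, under the DREAM and MuvB complexes, B-MYB and FOXM1. AURKA and PLK1 have been pursued as drug targets in lung cancer.

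The targeted gene was checked first. GOLM1 stood at 372, 378.1, 371.1 and 344.5 CPM in the 4 control libraries, at 38.94, 38.72, 38.76 and 37.48 CPM with siGOLM1-1, and at 47.24, 44.71, 44.57 and 53.43 CPM with siGOLM1-2. The groups did not overlap, and 10.5% and 13.0% of the control level were left. By edgeR's quasi-likelihood test with Benjamini-Hochberg adjustment over all genes, the adjusted p was 4.97e-12 and 1.57e-11. The libraries held between 41.6 M and 71.3 M counts. Mitochondrial transcripts took 5.14% to 8.13% of the counts in the controls, 3.22% to 4.89% with siGOLM1-1, where every library lay below every control, and 4.87% to 7.27% with siGOLM1-2. Keratin transcripts KRT7, KRT8 and KRT18 ran from 826 to 4440 CPM, CDH1 from 96.8 to 137 CPM and EPCAM from 3.02 to 6.28 CPM. KRT8 and KRT18 were called lower with siGOLM1-1 (log2 fold changes of -1.03 and -1.06) and KRT7 with siGOLM1-2 (-0.93), while CDH1 and EPCAM were called with neither. Of 9 markers of other cell types, PTPRC, CD3E, CD68, VWF, COL1A2 and HBB stayed at or under 0.142 CPM in every library, COL1A1 (21.3 to 92.8 CPM) and ACTA2 (31.1 to 55.7 CPM) were present, and PECAM1 had no row. ACTA2 was called lower with siGOLM1-1 (-0.40) and COL1A1 with siGOLM1-2 (-0.85). The part of these differences between groups in the results below was not tested.

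Some libraries stood apart within their group for the whole set of genes. Replicate 1 of siGOLM1-1 was the highest and replicate 4 the lowest of their group for all 10 genes, an order found for 28.3% and 28.5% of all tested genes. Replicate 1 of siGOLM1-1 was also the deepest library, at 71.3 M counts. Replicate 2 of siGOLM1-2 was the highest of its group and replicate 4 the lowest for all 10 genes, against 20.7% and 36.4% of all genes. Controls 1 and 2 both stood above controls 3 and 4 for 9 of the 10 genes, the exception being AURKB, against 32.9% of all genes. Control 4 was the lowest control for all 10 genes, so replicate 4 stood lowest in each of the groups. The share of all genes with that order was not counted. The ratio of the mean of controls 1 and 2 to the mean of controls 3 and 4 ran from 1.04 for AURKB to 1.48 for CDK1. Results against control are given below against all 4 controls, against either pair of them and without siRNA libraries at either end of their group. In bulk RNA, fewer cells in mitosis and less RNA of these genes per cell cannot be told apart.

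**Figure D1:**
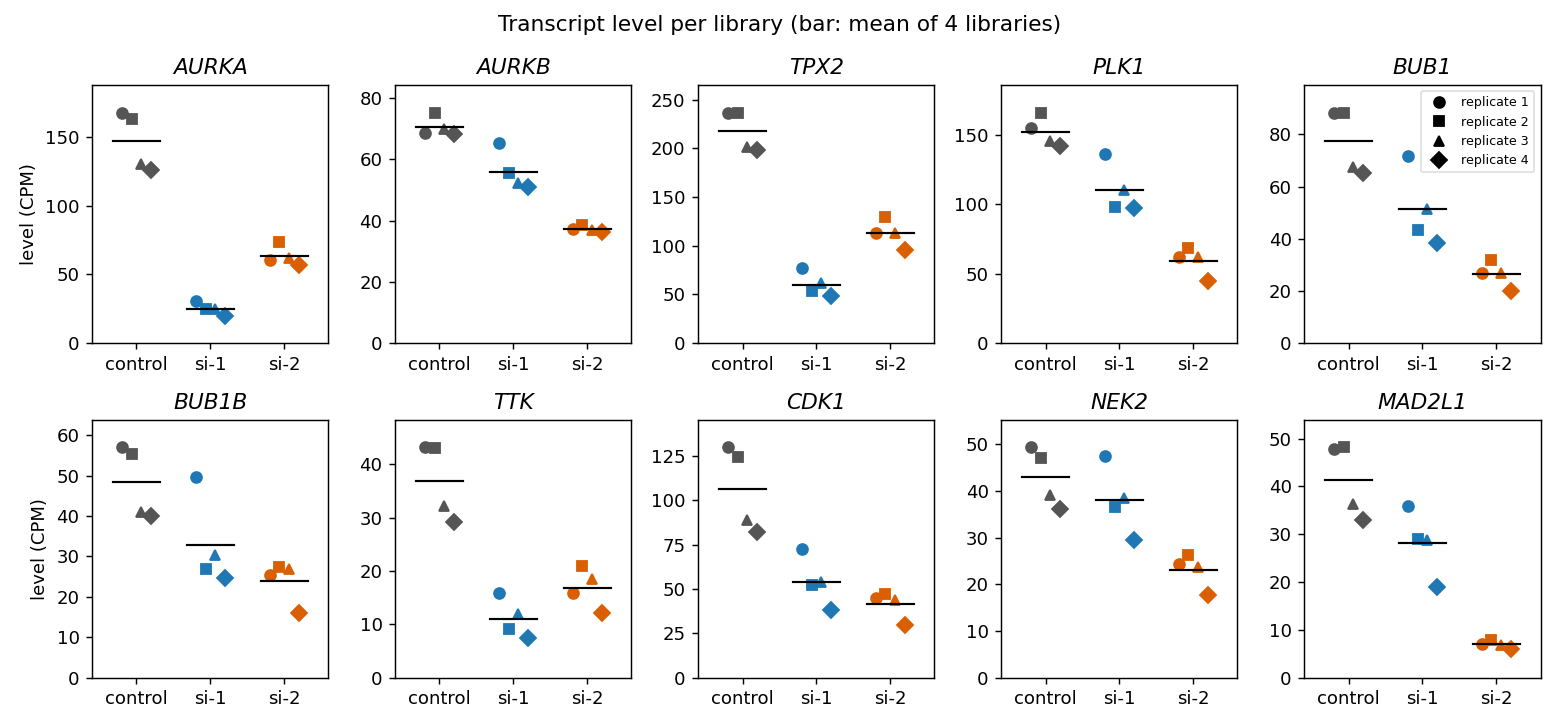
Level in CPM (vertical axes, linear, starting at 0) of each of the 10 genes in the 12 libraries, with "si-1" for siGOLM1-1, "si-2" for siGOLM1-2, symbols for replicate numbers and bars for group means. AURKA, TPX2 and TTK have their lowest mean with siGOLM1-1, and the other 7 genes with siGOLM1-2.

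The spindle assembly pair came first. AURKA, the Aurora A kinase of centrosomes and spindle poles, stood at 168.2, 163.2, 130.9 and 126.6 CPM in controls 1 to 4. With siGOLM1-1 it stood at 30.41, 24.61, 25.08 and 19.33 CPM, and with siGOLM1-2 at 60.78, 73.96, 62.32 and 56.57 CPM. The 3 groups did not overlap anywhere: every siGOLM1-1 library lay below every siGOLM1-2 library, and every siGOLM1-2 library below every control. The log2 fold change against control was -2.56 (SE 0.14, n = 4 per group) with siGOLM1-1, which left 16.9% of the control level, and -1.21 (SE 0.14) with siGOLM1-2, which left 43.1%. Among all tested genes, AURKA had the 76th largest fall with siGOLM1-1, with 0.428% of genes falling further, and 2.46% of genes fell further with siGOLM1-2. The siGOLM1-1 level of AURKA was 39.2% of the siGOLM1-2 level, a log2 difference of -1.35 (SE 0.14).

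TPX2, the spindle protein that binds AURKA and switches it on, stood at 236.9, 236.1, 201.6 and 198.5 CPM in the controls. It stood at 77.45, 53.14, 61.29 and 47.9 CPM with siGOLM1-1 and at 113.4, 129, 113.2 and 95.48 CPM with siGOLM1-2. As for AURKA, the groups were fully separated and siGOLM1-1 gave the lower level. The log2 fold change of TPX2 was -1.86 (SE 0.14) with siGOLM1-1, leaving 27.5%, and -0.95 (SE 0.14) with siGOLM1-2, leaving 51.7%. AURKA and TPX2 thus shared their order of groups, and over the 12 libraries their log2 CPM had a Pearson r of 0.99, as a description that includes the differences between groups.

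Unlike AURKA, the kinases CDK1, PLK1 and NEK2 had their lower means with siGOLM1-2, by a margin that depended on the libraries for CDK1. CDK1, the cyclin-dependent kinase that starts mitosis, stood at 129.9, 124.5, 89.04 and 82.35 CPM in the controls. It stood at 72.48, 52.32, 54.08 and 37.99 CPM with siGOLM1-1 and at 44.72, 47.42, 43.84 and 29.85 CPM with siGOLM1-2. Both siRNA groups lay below every control, and they overlapped each other. CDK1 had log2 fold changes of -0.97 (SE 0.20) and -1.36 (SE 0.21), and the direct difference between the siRNAs was 0.39 (SE 0.20), or 0.088 without siGOLM1-1 replicate 1 and siGOLM1-2 replicate 4. Controls 1 and 2 were widest apart from controls 3 and 4 for this gene, at means of 127 and 85.7 CPM.

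PLK1, a kinase of centrosome maturation and spindle building, stood at 155.5, 166.3, 145.8 and 142.3 CPM in the controls. It stood at 136.1, 98.27, 110.7 and 97.66 CPM with siGOLM1-1 and at 62.08, 68.81, 62.3 and 44.8 CPM with siGOLM1-2. Replicate 1 of siGOLM1-1 came within a few CPM of the lowest control, while the siGOLM1-2 libraries were far below both other groups. The log2 fold change of PLK1 was -0.46 (SE 0.13) with siGOLM1-1 and -1.36 (SE 0.13) with siGOLM1-2, which left 72.6% and 39.0% of the control level. The direct difference between the siRNAs was 0.90 (SE 0.13).

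NEK2, a kinase that helps to part the centrosomes before mitosis, stood at 49.38, 46.99, 39.15 and 36.22 CPM in the controls. It stood at 47.62, 36.52, 38.62 and 29.5 CPM with siGOLM1-1 and at 24.28, 26.26, 23.74 and 17.8 CPM with siGOLM1-2. The siGOLM1-1 libraries of NEK2 overlapped the controls, with replicate 4 alone below them, and every siGOLM1-2 library lay below both other groups. Its log2 fold changes were -0.17 (SE 0.15) and -0.90 (SE 0.15), and NEK2 had the smallest change of the 10 genes with siGOLM1-1 as well as with siGOLM1-2.

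AURKB, the Aurora B kinase of the chromosomal passenger complex, stood at 68.61, 75.31, 70.07 and 68.27 CPM in the controls. It stood at 65.5, 55.39, 52.17 and 50.99 CPM with siGOLM1-1 and at 37.31, 38.6, 37.03 and 36.17 CPM with siGOLM1-2. The groups did not overlap, and AURKB had the narrowest relative spread of the 10 genes in each group, with an SD of log2 CPM of 0.065 in the controls, 0.16 with siGOLM1-1 and 0.039 with siGOLM1-2 (n = 4 each). The log2 fold change of AURKB was -0.33 (SE 0.079) with siGOLM1-1 and -0.92 (SE 0.079) with siGOLM1-2. The 2 Aurora kinases therefore stood in opposite orders: the siGOLM1-1 level was 39.2% of the siGOLM1-2 level for AURKA and 150% of it for AURKB.

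The 4 checkpoint genes also differed among themselves. TTK, the MPS1 kinase at the top of the checkpoint, stood at 43.15, 42.97, 32.19 and 29.21 CPM in the controls. It stood at 15.8, 9.13, 11.87 and 7.453 CPM with siGOLM1-1 and at 15.92, 20.94, 18.44 and 12.15 CPM with siGOLM1-2. Both siRNA groups lay below every control, and they overlapped each other. TTK had log2 fold changes of -1.73 (SE 0.23), leaving 30.1%, and -1.13 (SE 0.22), leaving 45.8%. It was thus the only checkpoint gene of the 4 with the lower mean under siGOLM1-1, with a direct difference of -0.60 (SE 0.23).

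BUB1, a kinetochore kinase that recruits the other checkpoint proteins, stood at 88.26, 88.37, 67.5 and 65.19 CPM in the controls. It stood at 71.65, 43.47, 51.42 and 38.47 CPM with siGOLM1-1 and at 26.9, 31.89, 26.89 and 19.98 CPM with siGOLM1-2. Replicate 1 of siGOLM1-1 lay above controls 3 and 4, and all siGOLM1-2 libraries lay below every other library. The log2 fold change of BUB1 was -0.59 (SE 0.19) with siGOLM1-1 and -1.55 (SE 0.19) with siGOLM1-2, leaving 66.3% and 34.2%. The siGOLM1-1 level was 194% of the siGOLM1-2 level, a log2 difference of 0.96 (SE 0.19).

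BUB1B, which encodes the checkpoint inhibitor BUBR1, stood at 57.02, 55.43, 40.93 and 39.91 CPM in the controls. It stood at 49.64, 26.86, 30.45 and 24.77 CPM with siGOLM1-1 and at 25.49, 27.32, 26.82 and 16.09 CPM with siGOLM1-2. Replicate 1 of siGOLM1-1 was again inside the control range, and replicate 4 of siGOLM1-2 stood well below the 3 other libraries of its group. The log2 fold changes of BUB1B were -0.55 (SE 0.22) and -1.01 (SE 0.23), and the siRNA groups overlapped.

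MAD2L1, which encodes MAD2, the protein that binds and blocks CDC20, stood at 47.81, 48.17, 36.4 and 33.04 CPM in the controls. It stood at 36, 28.99, 28.69 and 19.06 CPM with siGOLM1-1 and at 7.083, 7.905, 6.929 and 6.045 CPM with siGOLM1-2. The siGOLM1-1 libraries overlapped the controls through replicate 1, whereas the siGOLM1-2 libraries lay far below every other library and close together. The log2 fold change of MAD2L1 was -0.55 (SE 0.17) with siGOLM1-1, leaving 68.2%, and -2.56 (SE 0.19) with siGOLM1-2, leaving 16.9%. It had the 25th largest fall of all tested genes with siGOLM1-2, and 0.137% of genes fell further, against 17.2% of genes with siGOLM1-1. The siGOLM1-1 level was 403% of the siGOLM1-2 level, a log2 difference of 2.01 (SE 0.18). AURKA with siGOLM1-1 and MAD2L1 with siGOLM1-2 were thus each left at 16.9% of control, by different siRNAs.

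**Figure D2:**
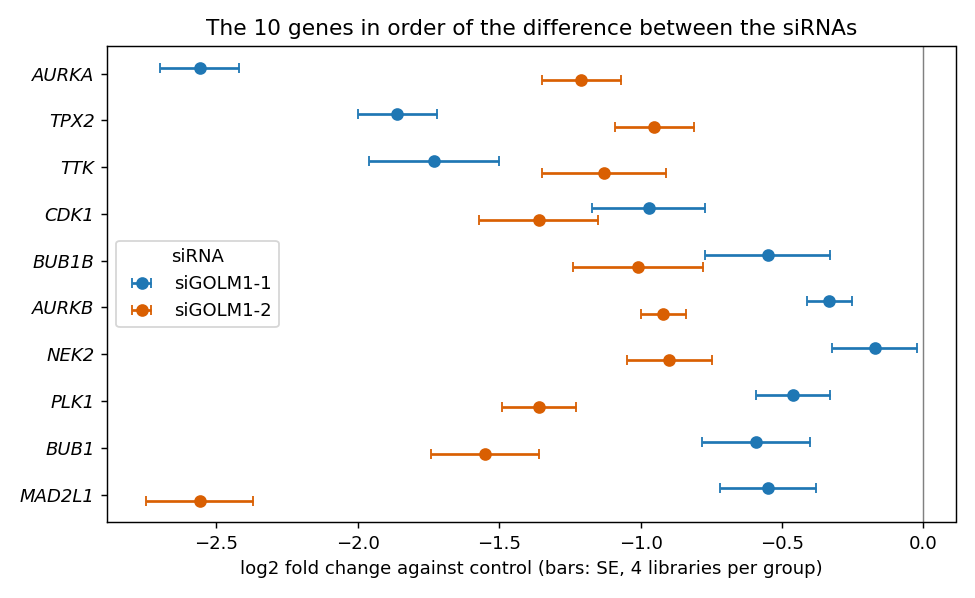
Log2 fold change against control (horizontal axis) of the 10 genes with siGOLM1-1 and siGOLM1-2, in order of the difference between the siRNAs, with bars for the SE (4 libraries per group). AURKA at the top reaches -2.56 with siGOLM1-1, and MAD2L1 at the bottom reaches -2.56 with siGOLM1-2.

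A gene was called changed where its adjusted p in edgeR's quasi-likelihood test, with Benjamini-Hochberg adjustment over all 17532 genes, was under 0.05. With siGOLM1-1, 8 of the 10 genes were called lower, none was called higher, and BUB1B and NEK2 were not called. Of all tested genes, 23.8% were called lower and 23.7% higher in that comparison. Of the 10 genes, 6 had no overlap with the controls, against 20.4% of all genes with all 4 siGOLM1-1 libraries below all 4 controls. With siGOLM1-2, all 10 genes were called lower and all 10 had no overlap with the controls, against 23.2% of all genes called lower, 21.8% called higher and 23.3% without overlap on the lower side. In the direct comparison, AURKA, TPX2 and TTK were called lower with siGOLM1-1 than with siGOLM1-2, 5 genes (AURKB, PLK1, BUB1, NEK2 and MAD2L1) were called higher, and CDK1 and BUB1B were not called. There, 26.5% of all genes were called lower and 27.9% higher, and 24.2% lay without overlap on the lower side and 24.2% on the higher side. AURKA and TPX2 had no overlap on the lower side and the same 5 genes had none on the higher side. Nothing is read from these counts, since the set was selected on the same comparisons. The median log2 fold change of the 10 genes was -0.57 with siGOLM1-1 and -1.17 with siGOLM1-2, beside medians of -0.01 and -0.0094 over all genes. Both comparisons against control use the same 4 control libraries.

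Against controls 1 and 2 alone, the log2 fold changes were larger in size for every one of the 10 genes and with either siRNA. AURKA moved from -2.73 against controls 1 and 2 to -2.36 against controls 3 and 4 with siGOLM1-1, and MAD2L1 from -2.78 to -2.29 with siGOLM1-2. For CDK1 the values were -1.23 and -0.65 with siGOLM1-1, and -1.62 and -1.03 with siGOLM1-2. With siGOLM1-1, BUB1 went from -0.78 to -0.36, MAD2L1 from -0.77 to -0.29, PLK1 from -0.54 to -0.37 and BUB1B from -0.77 to -0.28. NEK2 changed sign, from -0.34 to 0.026. AURKB was the gene least dependent on the pair, at -0.36 and -0.29 with siGOLM1-1. What set the control pairs apart was not tested.

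In all, 4 siRNA libraries stood at an end of their group for all 10 genes, and they were left out in 2 ways, chosen after the data were seen. Which way each value then moved is fixed by that choice, so only the sizes are given. Without replicate 1 of siGOLM1-1 and replicate 4 of siGOLM1-2, AURKA had log2 fold changes of -2.68 with siGOLM1-1 and -1.16 with siGOLM1-2, and MAD2L1 of -0.69 and -2.50. Without replicate 4 of siGOLM1-1 and replicate 2 of siGOLM1-2, AURKA stood at -2.46 and -1.30, and MAD2L1 at -0.40 and -2.63. The order of the siRNAs could not change for these 2 genes under either choice, since their siRNA groups did not overlap. With siGOLM1-1, BUB1B stood at -0.82 under the first choice and at -0.44 under the other, BUB1 at -0.80 and -0.48, and NEK2 at -0.30 and -0.067.

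The direct differences between the siRNAs depended on these libraries more for some genes than for others. AURKA differed by -1.51 and -1.16 under the first and the other choice, TPX2 by -1.13 and -0.74, and MAD2L1 by 1.81 and 2.23. AURKB differed by 0.49 and 0.65, PLK1 by 0.67 and 1.03, BUB1 by 0.64 and 1.18, and NEK2 by 0.50 and 0.90. TTK went from -0.96 to -0.33. For BUB1B (0.045 and 0.65) and CDK1 (0.088 and 0.60), the difference was near 0 under the first choice.

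**Figure D3:**
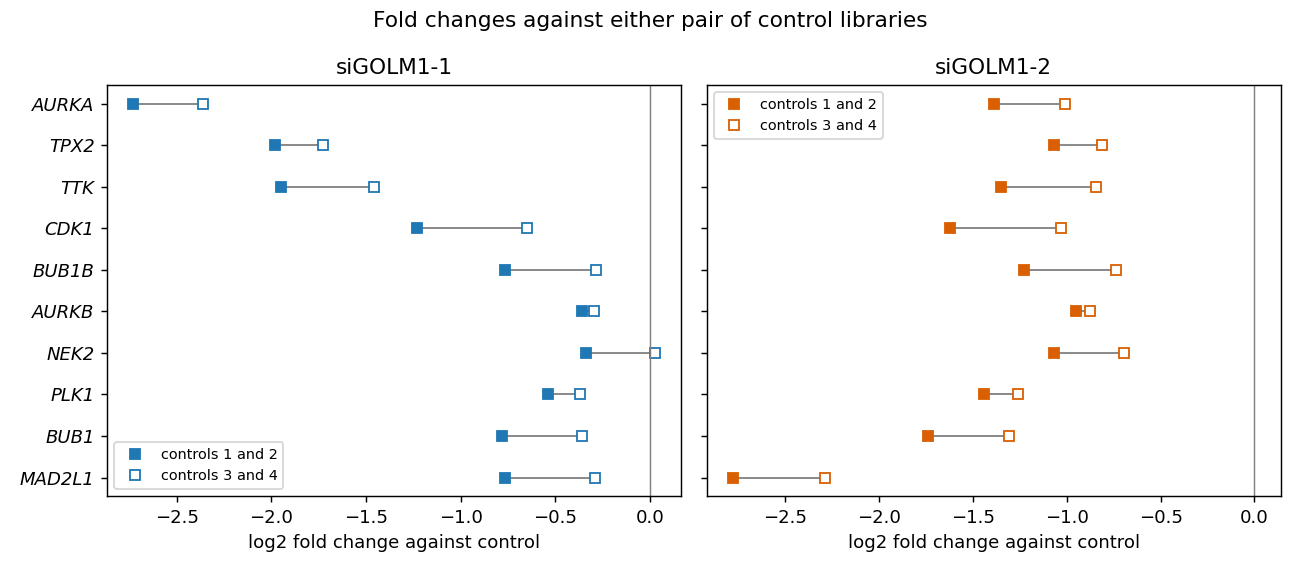
Log2 fold change against control (horizontal axes) of the 10 genes with siGOLM1-1 (left) and siGOLM1-2 (right), computed against control replicates 1 and 2 (filled) or 3 and 4 (open). Open symbols lie nearer to 0 throughout, and for NEK2 with siGOLM1-1 the open symbol lies at 0.026.

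The differences between libraries of one group were shared across the genes. With group means removed, the Pearson r of log2 CPM between genes ran from 0.70 to 0.99 over the 45 pairs, with a median of 0.93, and the pairs share libraries and depth. Without that removal, r over the 12 libraries ran from 0.21 for AURKA and MAD2L1 to 0.99. AURKA and MAD2L1 had an r of 0.97 within groups. Thus this pair varied together from library to library within a group and parted between the siRNAs. PLK1 and BUB1 had an r of 0.99 over the 12 libraries and 0.93 within groups.

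To describe the genes beside others of the same cell cycle phase, each log2 CPM was set against the mean log2 CPM of the mitotic cyclins CCNA2, CCNB1 and CCNB2 in the same library, a scale chosen after the data were seen. The cyclins had log2 fold changes of -0.13 (not called), -0.51 and -0.46 with siGOLM1-1, and of -0.93, -0.98 and -0.92 with siGOLM1-2. On this relative scale the median SD within a group fell from 0.23 to 0.12 in the controls, from 0.34 to 0.13 with siGOLM1-1 and from 0.26 to 0.087 with siGOLM1-2. AURKB was an exception, with an SD that went from 0.065 to 0.13 in the controls and from 0.039 to 0.18 with siGOLM1-2. AURKA then differed from control by -2.19 on the log2 scale with siGOLM1-1 and by -0.26 with siGOLM1-2. TPX2 differed from control by -1.50 and -0.01, and TTK by -1.39 and -0.19. MAD2L1 showed the opposite order, at -0.18 and -1.60. BUB1 differed by -0.23 and -0.61, PLK1 by -0.09 and -0.42, and CDK1 by -0.60 and -0.41. AURKB (0.05 and 0.03), NEK2 (0.20 and 0.05) and BUB1B (-0.20 and -0.08) differed by no more than 0.20 in size with both siRNAs, unlike the other genes. With a single siRNA, PLK1 and MAD2L1 (siGOLM1-1) or TPX2 (siGOLM1-2) lay nearer to control than some of them. Relative to the cyclins, the siGOLM1-1 libraries of AURKA ran from -1.66 to -1.58 and its controls from 0.47 to 0.63, and the siGOLM1-2 libraries of MAD2L1 ran from -2.93 to -2.79 and its controls from -1.39 to -1.14.

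**Figure D4:**
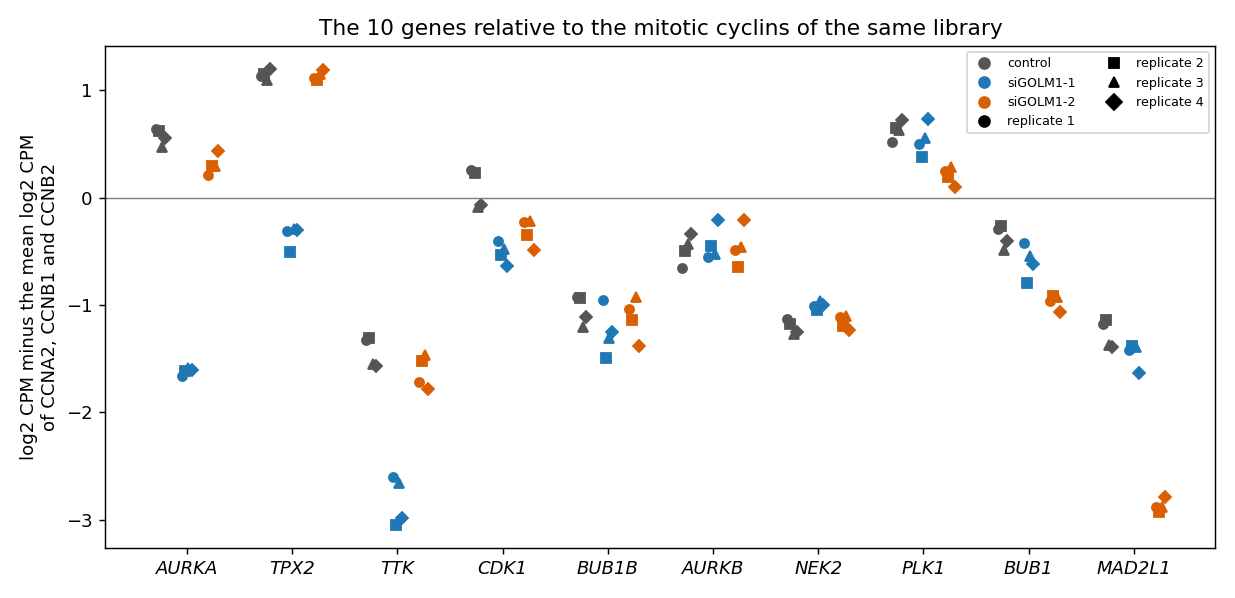
Log2 CPM of each of the 10 genes minus the mean log2 CPM of CCNA2, CCNB1 and CCNB2 in the same library (vertical axis), for 12 libraries per gene. AURKA, TPX2 and TTK stand apart with siGOLM1-1 and MAD2L1 with siGOLM1-2, while heights of different genes are not comparable because gene length was not used.

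Sequence before the start of transcription was examined for the 2 elements best known in promoters of this phase, the cell cycle genes homology region (CHR; TTTGAA or TTCGAA) and the CCAAT box (CCAAT). Both strands of the 250 bases before each start in the RefSeq table (GRCh38.p14) were searched, and in the sites printed no match of one motif overlapped a match of the other. Entries were matched for 7 of the 10 genes; AURKA, TPX2 and TTK had no entry. Of those 7, 3 held a CHR (42.9%), against 17.2% of 27305 genes in the table, and 6 held a CCAAT box (85.7%), against 37.0%. The shares were higher still among 17 cyclins, CDC25 phosphatases and kinase cofactors with an entry. There, 10 held a CHR (58.8%) and 17 a CCAAT box (100%). The following sites, 5′ to 3′ on the strand of the gene, are the matches nearest to the start. Not printed are the CCAAT box of AURKB, 129 and 153 bases before its 2 starts, and that of PLK1, 73 bases before its start. Capitals mark the motif, where ATTGG is a CCAAT box on the other strand.
PLK1, chr16:23678848-23678877 (+), CHR 29 bases before the start: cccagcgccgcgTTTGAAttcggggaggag
BUB1B, chr15:40161034-40161063 (+), CHR 23 bases before the start: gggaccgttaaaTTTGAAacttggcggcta
CDK1, chr10:60778448-60778477 (+), CHR 13 bases before the start: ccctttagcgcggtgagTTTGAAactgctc
CDK1, chr10:60778420-60778449 (+), CCAAT box 46 bases before the start: acgggctacccgATTGGtgaatccggggcc
BUB1, chr2:110678100-110678129 (-), CCAAT box 54 bases before the start: ctgccgccgccaCCAATgggcaggcgccct
NEK2, chr1:211675638-211675667 (-), CCAAT box 34 bases before the start: gcccaccgcctgCCAATagactgcgagatc
MAD2L1, chr4:120067060-120067089 (-), CCAAT box 229 bases before the start: gtggctactgaaATTGGaatcgtcatcttc
PLK1, BUB1B and CDK1 each had a CHR close to the start. Their log2 fold changes were -0.46, -0.55 and -0.97 with siGOLM1-1 and -1.36, -1.01 and -1.36 with siGOLM1-2. PLK1 and CDK1 also held a CCAAT box, while BUB1B had none in this window. AURKB, BUB1 and NEK2 had CCAAT boxes and no CHR letters in this window. Their values were -0.33, -0.59 and -0.17 with siGOLM1-1 and -0.92, -1.55 and -0.90 with siGOLM1-2. MAD2L1 had its only CCAAT box far from the start. These matches describe letters in a window, and binding at them was not measured. Whether they bear on the fold changes was not tested.

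Genes outside the 10 whose level followed AURKA or MAD2L1 most closely were ranked by Pearson r of log2 CPM over the 12 libraries. The 5 of them nearest to AURKA were MCM3 (r 0.996), a subunit of the replicative helicase, HMGB1 (0.994), a chromatin protein, ICMT (0.990), DNAJC9 (0.988) and NARS2 (0.987). MCM3 had log2 fold changes of -1.44 and -0.71 with siGOLM1-1 and siGOLM1-2, and HMGB1 of -1.52 and -0.75, so that both fell less far than AURKA. Those nearest to MAD2L1 were INTS8 (r 0.996), TUBB4B (0.993), TUBA1C (0.993), POLR2B (0.992) and TUBB (0.992). TUBB4B, TUBA1C and TUBB encode tubulins, the building blocks of microtubules: TUBB had log2 fold changes of -0.34 and -1.56, TUBB4B of -0.26 and -1.02, and TUBA1C of -0.26 and -0.97. The mean of the other 8 genes was followed most closely by ZWINT (r 0.996), a kinetochore protein, TMPO (0.996), POLA1 (0.994), PRR11 (0.991) and ERCC6L (0.991). ZWINT had log2 fold changes of -0.64 and -1.02. The likeness rests on the same 12 libraries, whose group means differ.

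The surrounding mitotic network was read from 6 lists with 108 genes, none of them one of the 10. With siGOLM1-1, 45 of the 108 were called lower and 13 higher, a share of 41.7% lower beside the 23.8% of all genes, and their median log2 fold change was -0.24. With siGOLM1-2, 61 were called lower and 8 higher, a share of 56.5% beside 23.2%, and the median was -0.38. In the direct comparison 17 were called lower and 44 higher with siGOLM1-1, with a median of 0.21 beside 0.015 for all genes. Scaled by library totals in place of TMM, which moved the median of all genes by -0.13 there, 21 were called lower and 24 higher. Under that scaling 22.2% of the 108 and 20.3% of all genes were called higher, against 40.7% and 27.9% with TMM. The share of each list called lower can be read beside those of all genes, 23.8% with siGOLM1-1 and 23.2% with siGOLM1-2. With controls 3 and 4 alone, 27 of the 108 (25.0%) were called lower with siGOLM1-1, beside 19.6% of all genes, and 44 (40.7%) with siGOLM1-2, beside 19.0%. The siGOLM1-1 share of these genes was then much nearer to that of all genes. All adjusted p-values for list genes come from edgeR's quasi-likelihood test with Benjamini-Hochberg adjustment over all tested genes.

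Of 14 other checkpoint genes, 10 were called lower and 1 higher with siGOLM1-1 (71.4% lower, median -0.34), and 8 lower and 0 higher with siGOLM1-2 (57.1% lower, median -0.37). TRIP13, the ATPase that remodels MAD2, had a log2 fold change of -0.88 (SE 0.12; adjusted p = 5.69e-05) with siGOLM1-1 and of -0.71 (SE 0.12; adjusted p = 0.000382) with siGOLM1-2. CDC20, the target of MAD2, fell with both, at -0.58 and -0.79. KNTC1 and ZWILCH of the ROD-ZW10 complex fell as well, at -0.70 and -0.67 with siGOLM1-1 and at -0.92 and -0.57 with siGOLM1-2. The siGOLM1-1 libraries of KNTC1 overlapped the controls. ZW10 itself stood at -0.08 (not called) with siGOLM1-1 and -0.39 (called) with siGOLM1-2. With controls 3 and 4 alone, 6 of the 14 were called lower with siGOLM1-1 and 4 with siGOLM1-2. Among these 14, the direct comparison called 2 lower with siGOLM1-1, MAD2L2 (-0.47) and MAD1L1 (-0.45), and ZW10 (0.31) higher.

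Of 17 other mitotic kinases, 8 were called lower and 1 higher with siGOLM1-1 (47.1% lower, median -0.33), and 9 lower and 3 higher with siGOLM1-2 (52.9% lower, median -0.38). PKMYT1, which holds CDK1 inactive, fell, at -1.22 (SE 0.10; adjusted p = 5.93e-07) with siGOLM1-1 and -0.86 with siGOLM1-2. PBK, a mitotic kinase, fell at -0.82 and -2.10, and PLK4, the kinase of centriole duplication, at -0.63 and -1.06. PLK3, a stress-responsive kinase of the same family, rose by 0.82 and 0.98 on the log2 scale. The NEK kinases NEK7 and NEK6, which act in mitotic spindle formation, went up with siGOLM1-2, at 1.08 (adjusted p = 0.000234) and 0.71 (adjusted p = 0.000701). With siGOLM1-1 NEK7 stood at -0.33 (not called) and NEK6 fell, at -0.89, and their direct differences were -1.41 and -1.60, both called. The siGOLM1-1 count was 5 with controls 3 and 4 alone.

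Of 18 cyclins, CDC25 phosphatases and kinase cofactors, 7 were called lower and 2 higher with siGOLM1-1 (38.9% lower, median -0.36), and 12 lower and 1 higher with siGOLM1-2 (66.7% lower, median -0.64). INCENP and BIRC5, which hold AURKB in the passenger complex, fell. They stood at -0.64 and -0.60 with siGOLM1-1, where their libraries overlapped the controls, and at -1.15 and -0.68 with siGOLM1-2. CDCA8, of the same complex, stood at -0.21 (not called) with siGOLM1-1 and -0.65 (called) with siGOLM1-2. CCNB1, the cyclin partner of CDK1, fell with both, at -0.51 and -0.98. SGOL2, which protects centromere cohesion, stood at -0.48 (not called) and -0.97 (called). CDC25B, a phosphatase that activates CDK1, rose by 0.73 and 0.40, while its relative CDC25C had the largest direct difference of the list, 0.97 higher with siGOLM1-1. The siGOLM1-1 count called lower was 0 with controls 3 and 4 alone, 11 with controls 1 and 2 alone or without siGOLM1-1 replicate 1, and 4 without siGOLM1-1 replicate 4.

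Of 20 genes of the anaphase-promoting complex and its regulators, 11 were called lower and 1 higher with siGOLM1-1 (55.0% lower, median -0.24), and 12 lower and 1 higher with siGOLM1-2 (60.0% lower, median -0.34). ANAPC13, a subunit of the complex, had log2 fold changes of -2.44 (SE 0.11; adjusted p = 1.49e-09) with siGOLM1-1 and 0.12 (not called) with siGOLM1-2. The direct difference was -2.57 (SE 0.11; adjusted p = 5.5e-10), and the siGOLM1-1 value lay near the -2.56 of AURKA. The scaffold subunit ANAPC1 fell with both siRNAs, at -0.62 and -0.47, and its direct difference of -0.14 was not called. Separase (ESPL1), its inhibitor securin (PTTG1) and the ubiquitin carrier UBE2C fell, at -0.62, -0.34 and -0.40 with siGOLM1-1 and at -0.91, -0.87 and -0.83 with siGOLM1-2. The siGOLM1-1 count called lower was 5 with controls 3 and 4 alone, and 7 without control 1, control 2 or siGOLM1-1 replicate 4.

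Of 17 mitotic exit phosphatase genes, 1 was called lower and 6 higher with siGOLM1-1 (5.88% lower and 35.3% higher, median 0.05), and 5 lower and 1 higher with siGOLM1-2 (29.4% lower, median -0.08). The share called lower with siGOLM1-2 was near that of all genes. ARPP19, a phosphatase inhibitor that acts below the kinase MASTL, had log2 fold changes of -1.61 (SE 0.11; adjusted p = 9.66e-08) and -0.02 (not called). PPP2R5A rose by 0.69 and PPP1R2 by 0.59 with siGOLM1-1, and PPP2R1A, the scaffold subunit, and PPP2R2A stood at -0.70 and -0.44 with siGOLM1-2, both called. The siGOLM1-1 count called lower was 4 with scaling by library totals and 3 with controls 3 and 4 alone, and 2 without control 2 or siGOLM1-1 replicate 3. The siGOLM1-2 count called higher was 3 with scaling by library totals, and 2 without control 1 or siGOLM1-1 replicate 3.

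Of 22 genes of DREAM, MuvB, B-MYB, FOXM1 and the E2F factors, 8 were called lower and 2 higher with siGOLM1-1 (36.4% lower, median -0.21), and 15 lower and 2 higher with siGOLM1-2 (68.2% lower, median -0.42). FOXM1 fell, at -0.90 with siGOLM1-1 and -0.50 with siGOLM1-2, and so did MYBL2, which encodes B-MYB, at -0.49 and -0.52. The MuvB genes LIN9, LIN37, LIN52, LIN54 and RBBP4 stood at -0.20, -0.22, -0.24, 0.22 and 0.14 with siGOLM1-1, none of them called. With siGOLM1-2, LIN9 (-0.49), LIN52 (-0.58) and RBBP4 (-0.26) were called lower and LIN54 (0.345) higher, and LIN37 (-0.09) was not called. E2F1 and E2F2 stood at -1.04 and -1.61 with siGOLM1-1 and at -0.31 and -0.61 with siGOLM1-2, all called. TFDP1, the partner of the E2F factors, fell at -0.64 and -1.29, and E2F8, a repressor, at -1.16 and -1.76. E2F7, another repressor, stood at 0.23 (not called) and -0.87 (called), and MYBL1 at -0.48 (not called) and 0.81 (called higher); the direct differences of 1.10 and -1.29 were both called. With siGOLM1-2 the count called lower was 9 with controls 3 and 4 alone, and the count called higher was 0 without control 3 or control 4. With siGOLM1-1 the count called higher was 5 without siGOLM1-1 replicate 4.

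**Figure D5:**
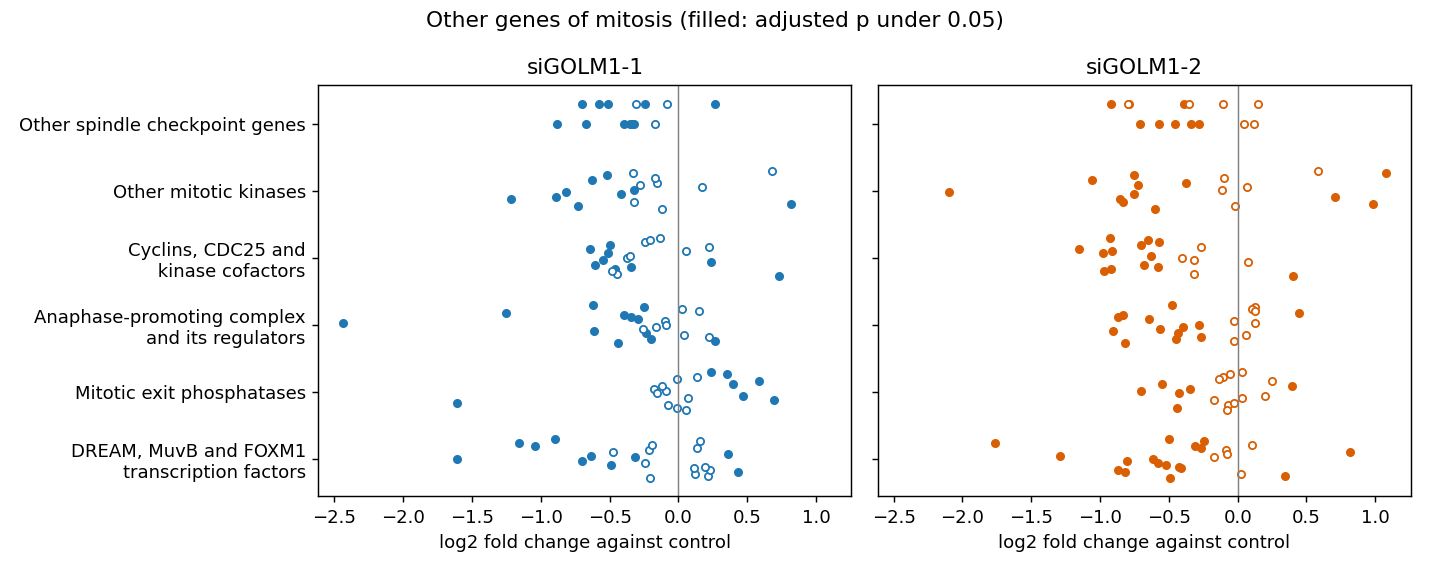
Log2 fold change against control (horizontal axes) of the 108 other genes of mitosis in 6 lists, with siGOLM1-1 (left) and siGOLM1-2 (right), filled where the adjusted p was under 0.05. With siGOLM1-1, 45 genes are filled on the lower side and 13 on the higher side, and with siGOLM1-2 61 and 8.

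Markers of proliferation were read beside these genes. Of 6 markers, 1 (16.7%) was called lower and 1 (16.7%) higher with siGOLM1-1, beside 23.8% and 23.7% of all genes. With siGOLM1-2, 4 (66.7%) were called lower and 0 higher, beside 23.2% and 21.8% of all genes. MKI67 stood at 426.5, 314.8, 241.6 and 306 CPM in the controls, at 521.2, 250.8, 205.1 and 228.4 CPM with siGOLM1-1 and at 216.3, 251.6, 237.1 and 124.1 CPM with siGOLM1-2, so the groups overlapped and it was called with neither siRNA. TOP2A, a gene of the same phase as the 10, had log2 fold changes of -0.14 (not called) and -0.90 (called), and PCNA was called with neither. MCM2, a replicative helicase subunit, fell with both, at -0.81 and -0.61. CCND1, a G1 cyclin, rose by 0.48 with siGOLM1-1 and stood at -0.90 (called) with siGOLM1-2. CCNE2, a cyclin of S phase entry, stood at -0.08 (not called) and -1.77 (called). The part that the number of dividing cells had in the values of the 10 genes was not tested.

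The lowest count of any of the 10 genes in any library was 304 reads, for MAD2L1 with siGOLM1-2. Exons shared with other genes were checked in GENCODE 29, since the strand setting of the counting was not given in the sources used here. PLK1 shared 42 bases with ERN2 and 553 with AC008870.3, both on the opposite strand, MAD2L1 shared 44 with AC108866.1 on the opposite strand, and BUB1B shared 457 with the read-through gene BUB1B-PAK6 on its own strand. None of these partners was found by name among the tested genes. Their counts were not examined, and the annotation behind the counts may name them otherwise. The AURKA pseudogene AURKAPS1 had 9 counts in all libraries together, and CSTF1, the neighbour of AURKA, had log2 fold changes of -0.46 and -0.17, of which the first was called.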

How the data were processed

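RNA of 12 A549 libraries was sequenced from a stranded mRNA kit, per the labels' protocols. Per the submitters' processing notes, bcl2fastq 2.20, STAR 2.7.3, DESeq2 1.24.0 and hg19 were used; the counting tool, its annotation and its use of strand are not given in the sources used here. The authors deposited raw counts per gene for 57773 genes. Per the file headers, the authors' result tables gave log2 fold changes and SEs, p-values before and after adjustment, a Wald score, and the mean signal over libraries (normalised counts). They were used only for comparison, and in the authors' deposited tables the log2 fold changes of the 10 genes differed from edgeR's by at most 0.02.

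Counts were fitted with edgeR 4.0.16 (R 4.3.3; TMM scaling, filterByExpr, glmQLFit) on all 12 libraries (9 residual degrees of freedom), which kept 17532 genes. A gene was called at an adjusted p under 0.05, and its SE was taken from the quasi-likelihood F statistic. Alternatives were DESeq2 1.42.0, other scalings and filters, a replicate block, control pairs and leaving out libraries. Named list genes were the 3 called genes with the largest change per list and comparison and those called in opposite directions. FOXM1, MYBL2, LIN9, LIN37, LIN52, LIN54, RBBP4, CDCA8, MKI67, PCNA and CCNB2 were named outside that rule, after their values were seen. Likeness was the Pearson r of log2 CPM (prior count 1). The genes and lists were chosen with earlier results of these data known.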

Additional observations from a re-analysis of the deposited data

Results flagged for a closer look

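BUB1B with siGOLM1-2 had 1 library far from the others: replicate 4 stood at 16.09 CPM beside 25.49, 27.32 and 26.82 CPM, a gap of 0.837 of the range of the group. It was the only one of 30 groups of 4 values (10 genes in 3 groups) in which the lowest or highest value stood this far out, and chance gives about 1 in 20 such groups. Replicate 4 was also the lowest siGOLM1-2 library for the other 9 genes.

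Among the listed mitotic genes, 4 were called in opposite directions with the siRNAs, and their direct differences (siGOLM1-1 minus siGOLM1-2, log2, edgeR's quasi-likelihood test) were called as well. NEK6, a mitotic kinase, stood at -0.89 with siGOLM1-1 and 0.71 with siGOLM1-2, a difference of -1.60. CDC26, a subunit of the anaphase-promoting complex, stood at -1.25 and 0.45, a difference of -1.70. PPP2R2D, a B55 subunit of protein phosphatase 2A, stood at 0.40 and -0.55, a difference of 0.95. E2F3, a transcription factor, stood at 0.43 and -0.82, a difference of 1.25.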

How the results depend on the processing

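Over all alternatives, the log2 fold changes of the 10 genes kept their direction and their side of the threshold in 658 cases, gained a call in 11, lost it in 20 and changed sign in 1 (NEK2 with siGOLM1-1 against controls 3 and 4, 0.026). With those 2 controls alone, 5 of the 10 genes and 27 of the 108 related genes were called lower with siGOLM1-1, beside 19.6% of all genes. Leaving out 1 library at a time gave 6 to 9 of the 10 genes called lower with siGOLM1-1, 10 every time with siGOLM1-2, and 2 to 3 lower and 5 to 6 higher in the direct comparison. Of all genes, 21% to 24.5% were called lower in these fits with siGOLM1-1 and 19.6% to 24.1% with siGOLM1-2. In the direct comparison, 23.8% to 26.5% of all genes were called lower and 24.8% to 27.7% higher. These calls are counts of the fit and no test of the set. BUB1 with siGOLM1-1 lost its call without control 1, control 2, siGOLM1-1 replicate 2 or replicate 4, and MAD2L1 without control 1 or control 2. Against controls 3 and 4 alone, PLK1, BUB1 and MAD2L1 with siGOLM1-1 were not called. BUB1B with siGOLM1-1 was called, among other fits, with DESeq2, against controls 1 and 2 alone, and without control 4, siGOLM1-1 replicate 1 or siGOLM1-2 replicate 4. With every gene that had a count kept, 6 of the 10 genes were called lower with siGOLM1-1, beside 11.4% of all genes. The direct difference of CDK1 was called without siGOLM1-1 replicate 4. The direct difference of TTK lost its call when any one of siGOLM1-1 replicates 2 to 4 or siGOLM1-2 replicates 1 to 3 was left out. Scaling by library totals moved the median of all genes by -0.13 in the direct comparison, and that of the 10 genes by -0.129. It gave 14 related genes called higher with siGOLM1-2 and 24 in the direct comparison.

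Over all tested genes, deviations of same-numbered libraries had an r between -0.19 and 0.34, over 0.1 in 3 of 12 pairs. Of the 12 libraries, 2 correlated best with their own number in both other groups. No r of differently numbered pairs is given beside these, so they do not decide whether the numbers pair the libraries. For each of the 10 genes, replicate 4 was the lowest library of every group. Whether the numbers pair the libraries for these genes was not tested. With the replicate block, 9, 10 and 3 of the 10 genes were called lower in the 3 comparisons and 7 higher in the direct one, and 8389, 7929 and 9613 genes were called in all. Of all genes, 24%, 23.1% and 27% were then called lower in the 3 comparisons, and 27.8% higher in the direct one. Of the 18 cyclins and cofactors, the block gave 12 called lower with siGOLM1-1, against 7 without it.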
